A study of Mus musculus with 6 samples.

Results

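The motile cilium genes described here are 42 genes of the axoneme and of its assembly, picked by name from the 49568 rows of a table of normalized counts from mouse lung. They were the forkhead and RFX regulators of ciliogenesis, 11 axonemal dynein heavy chains of the Dnah family, dynein light chains, radial spoke, dynein regulatory and central pair genes, tektins, and other genes of ciliated cells. The rule that names them uses no measured value. All 42 were among the 16879 genes tested, which reached 10 normalized counts in 3 or more libraries. Col6a1 encodes an alpha chain of the matrix protein collagen VI. Lungs labelled Col6a1-/- and wildtype were set side by side, both labelled as strain C57BL/6 and taken at 6 weeks of age. The labels give no treatment besides perfusion of the lung vessels with buffer, and they name neither the mutant allele nor the sex of the animals. Right lung lobes gave 3 libraries per genotype. The column header of wildtype replicate 2 carries the word New, whose meaning is not given. Each library held RNA of 2 animals of the same genotype mixed before library preparation, so a value is that of a pool, and the spread is that between 3 separate pools.

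Motile cilia of the airway stand on multiciliated cells of the bronchial and bronchiolar lining and move the mucus layer by beating. Their core, the axoneme, is a ring of doublet microtubules around a central pair. Outer and inner dynein arms, built on very large heavy chains, make the doublets slide, while radial spokes, the nexin-dynein regulatory complex and the central pair control the sliding. The transcription factors Foxj1, Rfx2 and Rfx3 switch on most of these genes as the cell differentiates. In whole lung, fewer ciliated cells and less ciliary RNA per cell cannot be told apart.

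Libraries held 28055414 to 37904878 reads in genes, and a cilium gene had between 118 and 13623 of these reads in a library. Col6a1 itself stood at 49.5% of the wildtype level (log2 fold change -1.01, SE 0.10, limma adjusted p 0.00643), with no overlap between genotypes, so reads of the gene remained and the label was met as a lower level only. By the level of Y-linked genes relative to the pool with the highest, the male share was 0.347% and 3.35% in wildtype replicates 1 and 2 and 51.5% in wildtype replicate 3, against 51.1% to 100% in the Col6a1-/- pools. Sex and genotype are therefore mixed in every contrast below, and their parts cannot be told apart from these pools alone. Lung markers were abundant, with summed normalized counts of at least 777720 for 6 alveolar type 2 genes and 615055 for 8 club cell genes in every library. The sperm genes Prm1, Prm2, Tnp1 and Odf1, which would mark axonemes of germ cells, were at 0 in all 6 libraries.

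None of the 42 cilium genes differed between genotypes at an adjusted p under 0.05 in the limma fit over all tested genes, which called 0.0652% of them (0.0178% higher and 0.0474% lower in Col6a1-/- lungs). The smallest adjusted p among the cilium genes was 0.0693. At an unadjusted p under 0.05, 5 cilium genes were higher and none lower, where 20.3% of all tested genes passed, 9.72% higher and 10.6% lower. Point estimates were mostly above 0: 30 of 42 cilium genes had a higher estimate, with a median log2 fold change of 0.15, while over all tested genes 51.7% had one and the median was 0.01. The genotypes did not overlap for 7 cilium genes, all higher, where 24.9% of all tested genes did not overlap, 10.7% higher and 14.2% lower.

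The call depended on the model for a trio of genes, Sntn, Mlf1 and Spag16. In the authors' deposited table these 3 cilium genes had an adjusted p under 0.05, all higher, where 5.05% of genes with an adjusted p passed, 1.87% higher and 3.18% lower. DESeq2 on recovered reads also called the 3, beside 5.06% of its genes in either direction and 1.87% higher, and DESeq2 limited to the genes tested by limma did so beside 5.18% and 2.01%. The edgeR fit on recovered reads called 0 cilium genes, beside 0.077% of genes in either direction and 0.0178% higher. With no filter on low values limma called Sntn and Mlf1, beside 0.327% of its genes in either direction and 0.112% higher. With weights for library quality limma called the 3 genes as higher and Dnah11 and Hydin as lower, in a fit that called 19.1% of all tested genes, 9.89% as higher.

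**Figure D1:**
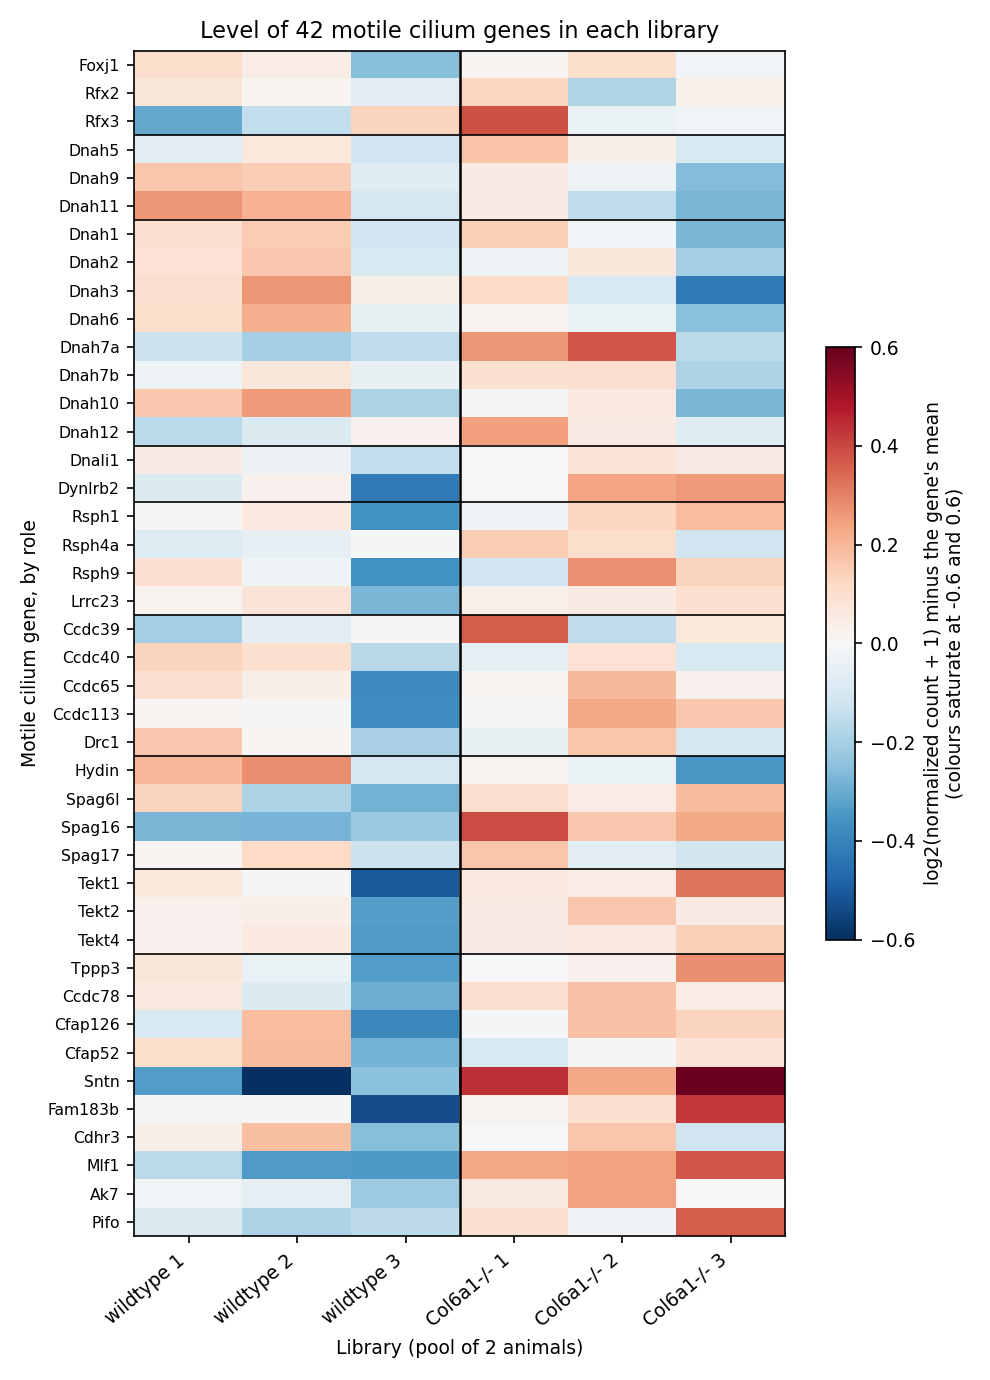
Colours give log2(normalized count + 1) of each cilium gene minus its own mean over the 6 libraries, with genes in rows, libraries in columns, horizontal lines between roles and a vertical line between genotypes. Wildtype replicate 3 is the lowest library for 24 of 42 genes, Col6a1-/- replicate 3 is the lowest for 8 of the 11 Dnah genes, and Sntn, Mlf1 and Spag16 are higher in all Col6a1-/- libraries.

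Of the regulators, Foxj1, the forkhead factor that commits a cell to making motile cilia, did not differ between the genotypes beyond the spread of the libraries. Foxj1 (ENSMUSG00000034227.7, chromosome 11, 116330704 to 116335399, minus strand, GRCm38) had normalized counts of 2748, 2635 and 2137 in the wildtype libraries, in replicate order as in all that follows, and of 2582, 2746 and 2528 in the Col6a1-/- libraries. Wildtype replicate 3 was the lowest library, and the other 5 lay close together. On the log2 scale the fold change was 0.07 (SE 0.11, limma adjusted p 0.73). Rfx2 and Rfx3 bind the X-box of ciliary promoters. Rfx2 had 749, 719 and 683 normalized counts in wildtype and 778, 629 and 727 in Col6a1-/- libraries, with a log2 fold change of -0.02 (SE 0.11, adjusted p 0.952). Rfx3 had 434, 484 and 589 in wildtype and 699.8, 522 and 531 in Col6a1-/- libraries (log2 fold change 0.22, SE 0.15, adjusted p 0.437). Neither gene separated the genotypes.

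The genes with the smallest p among the 42 were Sntn, Mlf1 and Spag16, which were higher in all 3 Col6a1-/- libraries than in any wildtype library. They had a limma adjusted p under 0.1, as did 2.14% of all tested genes in either direction. Those that passed as higher were 0.788% of all tested genes. Sntn (ENSMUSG00000044772.2, chromosome 14, 13670876 to 13683148, plus strand) encodes sentan, a protein of the ciliary tip. Its normalized counts were 247, 195 and 263 in the wildtype and 423, 365 and 469.8 in the Col6a1-/- libraries. The mean was 178% of wildtype, 419 ± 52.4 against 235 ± 35.5 (SD, n = 3 pools each), or 0.83 on the log2 scale (SE 0.15, limma adjusted p 0.0693).

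Mlf1 (ENSMUSG00000048416.15, chromosome 3, 67374097 to 67400003, plus strand), named for its part in a leukaemia fusion and abundant in ciliated cells, had 459, 406 and 405 normalized counts in wildtype and 603, 608 and 666 in Col6a1-/- libraries. It stood at 148% of wildtype (log2 fold change 0.56, SE 0.11, limma adjusted p 0.0781). Spag16 (ENSMUSG00000053153.14, chromosome 1, 69826970 to 70725132, plus strand), a protein of the central pair, had 406, 405 and 421 in wildtype and 645, 550.0 and 576 in Col6a1-/- libraries. It stood at 144% of wildtype (log2 fold change 0.52, SE 0.11, limma adjusted p 0.0818). The wildtype libraries of Spag16 lay within a narrow band, and the lowest Col6a1-/- library was well above it.

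In the authors' deposited table the log2 fold changes were 0.67 for Sntn, 0.49 for Mlf1 and 0.46 for Spag16, with adjusted p of 0.000246, 0.00234 and 0.00596. With a smooth trend on transcript length and GC content removed from each library, their log2 fold changes were 0.46, 0.35 and 0.33, with limma adjusted p of 0.105, 0.116 and 0.133. Their transcripts held 40.4%, 44.5% and 41.3% GC, below the median of 49.7% over all tested genes. Without wildtype replicate 3 all 3 genes passed, with limma adjusted p of 0.011, 0.0236 and 0.0237, a fit in which 8.18% of all tested genes passed, 5.25% as higher. Without Col6a1-/- replicate 2 Sntn passed at 0.0419, beside 0.278% of all tested genes, 0.136% as higher. Each of the remaining 4 libraries left out in turn gave an adjusted p above 0.05 for all 3 genes.

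**Figure D2:**
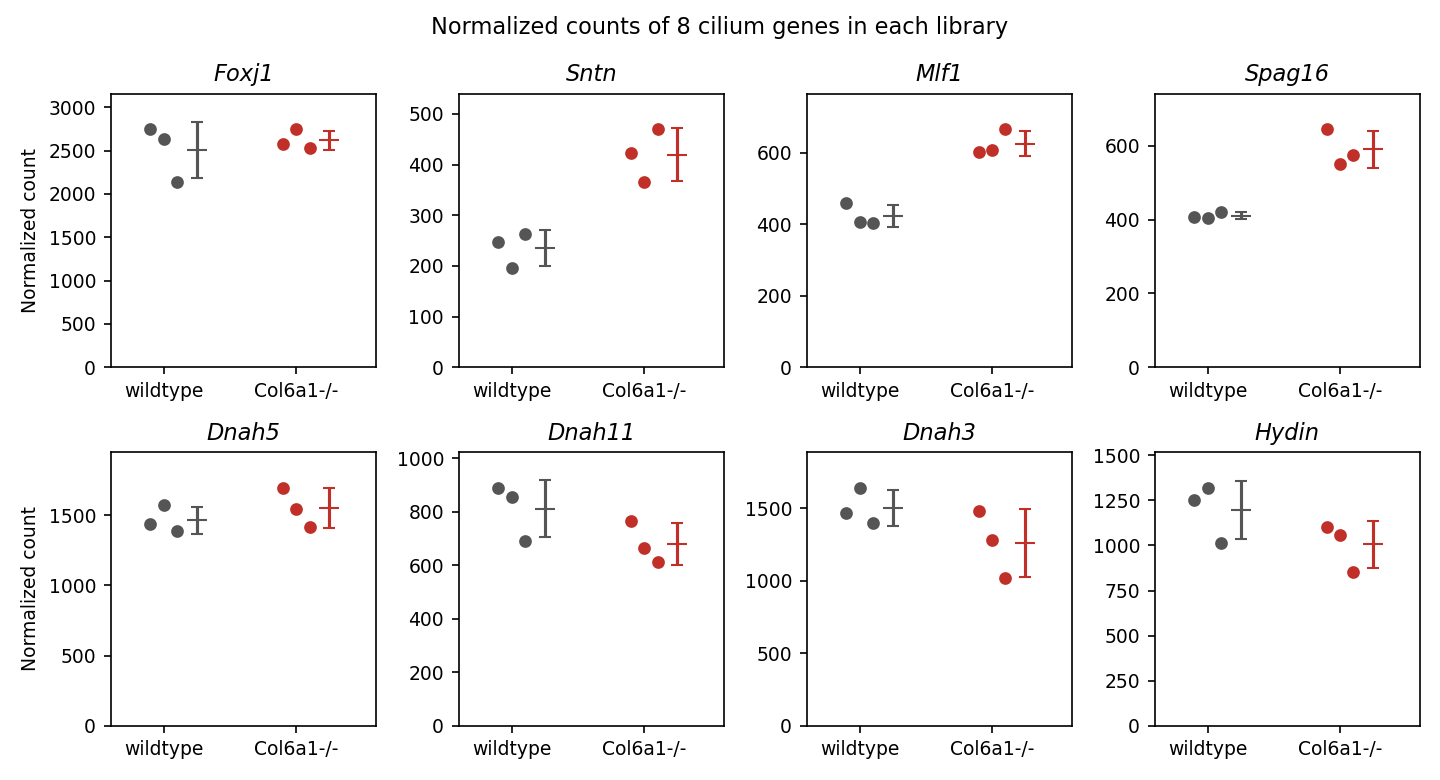
Each panel shows the normalized count of a gene (vertical axis, from 0) in the 3 wildtype and 3 Col6a1-/- libraries as points, with the mean and SD beside them. Sntn, Mlf1 and Spag16 do not overlap between genotypes, Foxj1 and Dnah5 overlap, and Dnah11, Dnah3 and Hydin overlap with lower Col6a1-/- means.

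The promoters of these 3 genes are shown because they had the smallest p of the 42, and because the X-box bound by RFX factors and the forkhead site are the known switches of ciliary genes. The sequences are the 250 bases before the RefSeq transcript start (GRCm38.p6), written 5′ to 3′ on the gene's strand. Capitals mark the short X-box site GTTGCC, or its reverse complement, and the forkhead site GTAAACA, or its reverse complement. The promoter of Dnah10, a long dynein gene with a lower estimate, stands last for comparison.
Sntn, chr14:13670626-13670875, plus strand: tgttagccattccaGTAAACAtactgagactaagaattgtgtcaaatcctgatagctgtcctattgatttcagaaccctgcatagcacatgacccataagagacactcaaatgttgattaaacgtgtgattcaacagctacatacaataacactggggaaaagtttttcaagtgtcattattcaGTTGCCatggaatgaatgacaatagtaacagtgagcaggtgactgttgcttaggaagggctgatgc
Mlf1, chr3:67373847-67374096, plus strand: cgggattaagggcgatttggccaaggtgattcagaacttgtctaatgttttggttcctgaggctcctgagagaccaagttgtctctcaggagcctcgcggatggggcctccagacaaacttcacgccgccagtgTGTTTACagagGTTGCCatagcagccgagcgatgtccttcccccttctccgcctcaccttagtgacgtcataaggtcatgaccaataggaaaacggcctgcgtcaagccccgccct
Spag16, chr1:69826720-69826969, plus strand: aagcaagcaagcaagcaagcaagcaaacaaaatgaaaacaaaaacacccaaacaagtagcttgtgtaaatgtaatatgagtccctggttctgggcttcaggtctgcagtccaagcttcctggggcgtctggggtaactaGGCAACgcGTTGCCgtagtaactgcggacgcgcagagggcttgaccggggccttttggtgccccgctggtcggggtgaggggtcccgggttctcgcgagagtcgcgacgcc
Dnah10, chr5:124724835-124725084, plus strand: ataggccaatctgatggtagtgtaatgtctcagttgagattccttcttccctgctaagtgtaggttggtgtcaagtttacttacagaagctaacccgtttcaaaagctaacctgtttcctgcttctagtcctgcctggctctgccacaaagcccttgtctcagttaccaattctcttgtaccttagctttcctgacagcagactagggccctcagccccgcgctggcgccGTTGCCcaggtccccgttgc

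Sntn and Mlf1 each held a short X-box site and a forkhead site, and Spag16 held short X-box sites on both strands. Short X-box sites were frequent in the whole group, while forkhead sites were in few windows. Of the 42 cilium genes, 37 matched the RefSeq promoter table, with 43 windows from 250 bases before to 50 after a start (Foxj1, Tppp3, Dnah3, Rsph1 and Rsph4a had no match). On either strand, GTTGCC occurred in 51.2% of these windows against 12.9% of the 15339 windows of tested genes. The full palindromic X-box of RFX factors, searched on both strands and able to overlap a short site, occurred in 6 of the 43 windows, or 13.95%, against 2.31%. GTAAACA on either strand occurred in 3 windows, or 6.98%, against 2.81%. A match is a run of letters and not a measured binding site. Those of 3 genes are printed here, with the full X-box in capitals, as examples of the match. The search pattern fixes part of its letters. For all 3 the window belongs to a RefSeq start inside the annotated gene, downstream of its first base. The windows at the outermost starts of Cfap126 and Pifo held none of the searched sites.
Cfap126, chr1:171122955-171122984, plus strand: tgttcaagGTATCCATGGCTACttctcagt
Pifo, chr3:106001498-106001525, minus strand: gcggttccGTTCCCTTGGCAACgtagta
Tekt4, chr17:25471422-25471451, plus strand: ccccacctGTGTCCTGGGAAACaaactcat
The 23 cilium genes with an X-box of either kind had a median of 0.21 on the log2 scale, and the 14 without had -0.0048. These groups also differed in transcript length, with medians of 1542 and 9936 bases, and the second held 7 Dnah genes against 3, so that length and motif cannot be told apart here.

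Most dynein heavy chain genes had lower estimates, and none was called by unweighted limma, edgeR or DESeq2. Limma with weights for library quality called Dnah11 as lower (adjusted p 0.0383). That fit called 19.1% of all tested genes, and 1556 of 16879 as lower. Of the 11 Dnah genes, 7 had a lower estimate, the median log2 fold change was -0.11, the smallest adjusted p was 0.289 and all overlapped between genotypes. The outer arm chains Dnah5, Dnah9 and Dnah11 make the main force of the beat. Dnah5 (ENSMUSG00000022262.8, chromosome 15, 28203752 to 28472052, plus strand) had 1438, 1573 and 1386 normalized counts in wildtype and 1696, 1545 and 1414 in Col6a1-/- libraries (log2 fold change 0.08, SE 0.10, adjusted p 0.671). Dnah9 had 1143, 1129 and 966 in wildtype and 1051, 996 and 849.7 in Col6a1-/- libraries (log2 fold change -0.16, SE 0.11, adjusted p 0.435). Dnah11 had 890.0, 855 and 689 in wildtype and 766, 665 and 612 in Col6a1-/- libraries (log2 fold change -0.25, SE 0.13, adjusted p 0.292). Dnah9 and Dnah11 had means of 89.5% and 83.9% of wildtype, in each case with wildtype replicate 3 below Col6a1-/- replicate 1.

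The inner arm chains, which shape the waveform, spanned log2 fold changes from -0.27 to 0.32. At the lower end, Dnah3 had 1463, 1641 and 1398 normalized counts in wildtype and 1481, 1284 and 1017 in Col6a1-/- libraries (log2 fold change -0.27, SE 0.13, adjusted p 0.289), so that the difference lay in Col6a1-/- replicates 2 and 3. Dnah6, the most abundant Dnah gene at 2250 ± 199 in wildtype, stood at 88.2% of the wildtype mean (-0.18 on the log2 scale, SE 0.10, adjusted p 0.341). Dnah10, Dnah2 and Dnah1 had log2 fold changes of -0.15, -0.11 and -0.10, with adjusted p of 0.535, 0.619 and 0.703. At the upper end, Dnah7a had 136, 129.5 and 134 in wildtype and 179, 194 and 133 in Col6a1-/- libraries (log2 fold change 0.32, SE 0.17, adjusted p 0.302), with Col6a1-/- replicate 3 inside the wildtype range. Dnah12 had a log2 fold change of 0.15 (SE 0.11, adjusted p 0.462), and Dnah7b had 0.00 (SE 0.13, adjusted p 0.995). Dnah7a, Dnah7b and Dnah7c are close copies, so the split of reads between them is uncertain. The estimate for Dnah7c, outside the 42, was 0.02 on the log2 scale. The annotation shows that 7 of the Dnah genes, Dnah3 most at 10.5% of exon bases, shared exon bases with a gene on the opposite strand. The strand setting of the counting is not stated in the labels, so such reads may belong to either gene. The same holds for 7 other cilium genes, with the largest overlaps for Tekt2 at 20.8%, Ccdc39 at 16.9% and Ccdc78 at 10.5% of exon bases.

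Per kilobase of the longest transcript, the wildtype level of the Dnah genes ran from 10.9 ± 0.268 normalized counts for Dnah7a to 178 ± 15.7 for Dnah6 (SD, n = 3 pools). In order of that level, Dnah6 was followed by Dnah3 at 122 ± 10.2, Dnah10 at 98.8 ± 15.5, Dnah5 at 93.7 ± 6.16 and Dnah9 at 78.2 ± 7.12. Dnah10 and Dnah5 did not differ beyond their spread. Dnah6 took 20.6%, 20.97% and 20.6% of all Dnah reads in the wildtype and 19.4%, 19.7% and 20.02% in the Col6a1-/- libraries. Dnah5 took 13.1%, 13.5% and 14.01% in the wildtype and 15.4%, 14.9% and 15.99% in the Col6a1-/- libraries. Of the 11 shares, those of Dnah5 and Dnah7a were higher and those of Dnah6, Dnah9 and Dnah11 lower in all Col6a1-/- libraries than in any wildtype library. Without overlap, 3 against 3 libraries always give p = 0.1 in the exact two-sided permutation test, the smallest they allow. The test therefore adds nothing to the choice of these 5, and none can pass 0.05. Shares within a library add up to a fixed total, so a rise in any of them goes with falls in others. In level, all 11 Dnah genes overlapped between the genotypes, where 24.9% of all tested genes did not overlap. That background is for levels, and none was computed for shares.

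Among the accessory dynein chains, Dynlrb2, a light chain of the roadblock family, had 872, 944 and 689 normalized counts in wildtype and 925, 1091 and 1106 in Col6a1-/- libraries (log2 fold change 0.32, SE 0.13, adjusted p 0.202). Dnali1, an inner arm light intermediate chain, had a log2 fold change of 0.09 (adjusted p 0.621). All 4 radial spoke genes had estimates above 0 (median 0.16 on the log2 scale, none called). Rsph1, a protein of the spoke head, had 824, 853 and 637 in wildtype and 807, 895 and 931 in Col6a1-/- libraries (log2 fold change 0.20, SE 0.13, adjusted p 0.4). Lrrc23, which had the highest level per kilobase of the spoke genes at 848 ± 108 in wildtype, had a log2 fold change of 0.12 (adjusted p 0.554). In both genes wildtype replicate 3 was the lowest library.

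Of the 5 genes of the dynein regulatory complex and the axonemal ruler, 4 had a higher estimate and the median was 0.16. Ccdc113 had a log2 fold change of 0.25 (SE 0.14, adjusted p 0.323), and Drc1, the scaffold of the complex, had 0.01 (SE 0.12, adjusted p 0.96). The ruler proteins Ccdc39 and Ccdc40, which work as a pair, had 0.19 and -0.04, with adjusted p of 0.441 and 0.857. Both have transcripts of middling length, but Ccdc39 has 39.9% GC and Ccdc40 has 54.6%. With the length and GC trend removed the order turned, to -0.07 for Ccdc39 and 0.12 for Ccdc40.

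The central pair genes split. Spag16 is described above, and Spag6l, an armadillo repeat protein, had 565, 453 and 423 normalized counts in wildtype and 553, 530.3 and 587 in Col6a1-/- libraries (log2 fold change 0.22, SE 0.13, adjusted p 0.34). Spag17 had a log2 fold change of -0.00 and an adjusted p of 0.992. Hydin, a giant protein of the central pair and the longest transcript of the 42 at 15783 bases, had 1252, 1321 and 1013 in wildtype and 1103, 1060 and 855 in Col6a1-/- libraries (log2 fold change -0.25, SE 0.13, adjusted p 0.308). Its lowest wildtype library, replicate 3, was under 2 of the 3 Col6a1-/- libraries. With the length and GC trend removed the estimate for Hydin turned to 0.01.

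The tektins, filament proteins inside the doublet wall, all had estimates above 0. Tekt1 had 479.8, 462 and 323 normalized counts in wildtype and 479.1, 475 and 577 in Col6a1-/- libraries (log2 fold change 0.29, SE 0.16, adjusted p 0.327). Tekt2 had 407, 411 and 318 in wildtype and 413, 447 and 414 in Col6a1-/- libraries (log2 fold change 0.18, SE 0.13, adjusted p 0.457), so that its genotypes did not overlap, by a margin of a few counts. Tekt4 had a log2 fold change of 0.17 (adjusted p 0.506). For each tektin the difference was largest against wildtype replicate 3.

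Among the remaining 10 genes, 9 had a higher estimate, and the median was 0.21. Tppp3, a tubulin polymerization protein and the most abundant of the 42, had 11547, 10677 and 8695 normalized counts in wildtype and 10932, 11144 and 13288 in Col6a1-/- libraries (log2 fold change 0.20, SE 0.12, adjusted p 0.384). Fam183b had 449, 450.1 and 313 in wildtype and 459, 485 and 607 in Col6a1-/- libraries (log2 fold change 0.37, SE 0.16, adjusted p 0.244), without overlap. Pifo, a regulator of cilium disassembly, had 258, 240.4 and 245 in wildtype and 291, 270.1 and 352 in Col6a1-/- libraries (log2 fold change 0.29, SE 0.13, adjusted p 0.253), also without overlap. Ak7, an adenylate kinase of the axoneme, had 953, 928 and 829.7 in wildtype and 1002, 1140.4 and 968 in Col6a1-/- libraries (log2 fold change 0.20, SE 0.10, adjusted p 0.304), the last of the genes without overlap. Ccdc78, which acts in centriole amplification, and Cfap126, Cdhr3 and Cfap52 had log2 fold changes of 0.21, 0.20, 0.03 and -0.01, with adjusted p of 0.325 to 0.985.

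Long and short cilium genes stood apart in their estimates. The median log2 fold change was -0.11 for the 11 Dnah genes and 0.19 for the other 31, of which 26 were higher. Relative to the mean of the 6 libraries, the 31 had mean log2 levels of -0.0049, -0.025 and -0.25 in the wildtype and 0.080, 0.096 and 0.11 in the Col6a1-/- libraries. The Dnah genes had 0.055, 0.11 and -0.079 in the wildtype and 0.10, 0.032 and -0.22 in Col6a1-/- libraries. The level of the Dnah genes minus that of the other 31 came to 0.060, 0.14 and 0.17 in the wildtype and to 0.020, -0.064 and -0.33 in the Col6a1-/- libraries. All 3 Col6a1-/- differences lay below all 3 wildtype differences, and the gap between the genotypes was -0.25, or -0.15 without Col6a1-/- replicate 3.

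The same gradient was present over all genes. Tested genes whose longest transcript had at least 8000 bases numbered 868 and had a median log2 fold change of -0.16, against -0.11 for the 13 cilium genes of that class. The 1227 tested genes under 1000 bases had a median of 0.14, and the 4 cilium genes among them had 0.31. In the classes of 1000 to 2000, 2000 to 4000 and 4000 to 8000 bases, the medians over all tested genes were 0.10, 0.02 and -0.07, and those of 11, 11 and 3 cilium genes were 0.20, 0.09 and -0.02. In each of the 5 classes the cilium median was the higher. Spearman's rho of the log2 fold change with transcript length was -0.73 across the 42 cilium genes and -0.28 across 16435 tested genes with a known length, as a description across genes that share libraries. Within the Dnah genes, all of similar length, rho with GC content was -0.51 over 11 genes. The 3 with under 45% GC, Dnah12, Dnah7a and Dnah7b, were among the 4 without a lower estimate. The 334 tested genes of at least 8000 bases with that GC had a median of 0.03. It was -0.23 for those of 45% to 50% GC and -0.28 for those of 50% GC or more. The Dnah medians in these GC classes were 0.15, -0.22 and -0.13, from 3, 4 and 4 genes. Among the Dnah genes the fall thus did not continue above 50% GC.

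**Figure D3:**
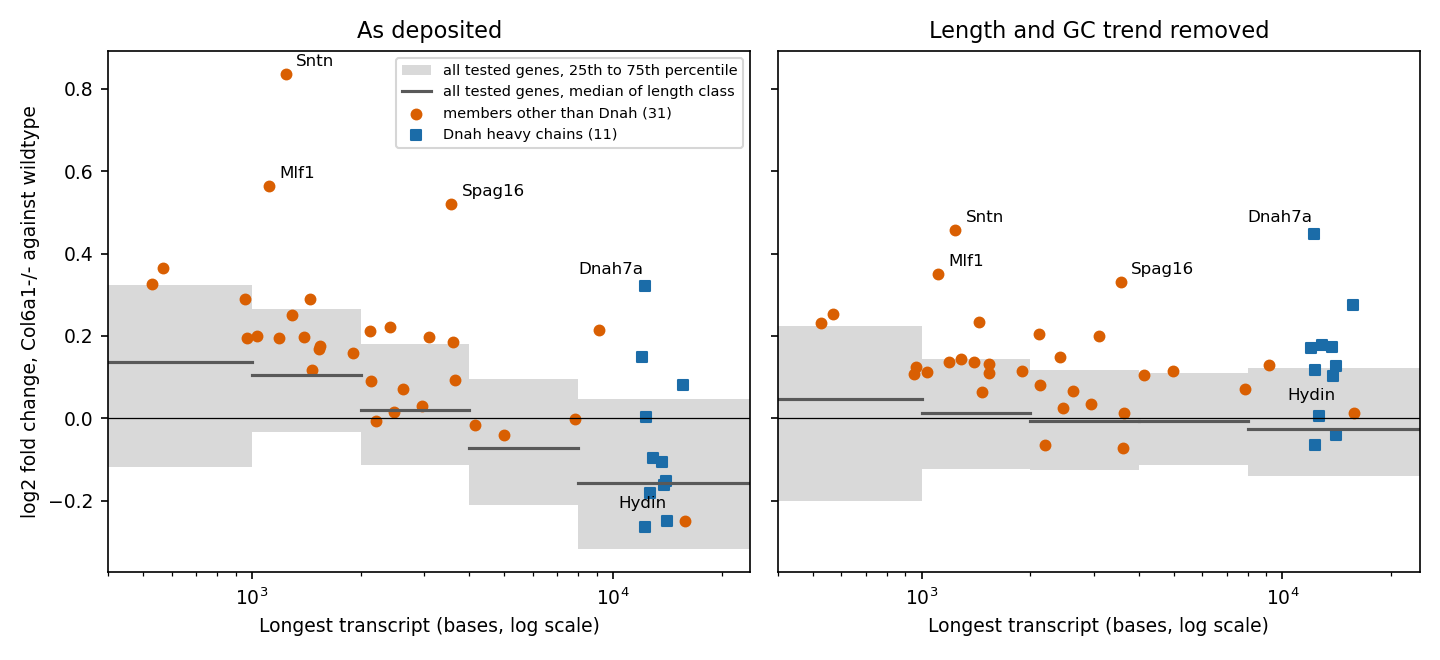
Log2 fold change of Col6a1-/- against wildtype (vertical axis) by the length of the longest transcript in bases (log axis) for the 11 Dnah genes as squares and the other 31 cilium genes as circles, over the median and the 25th to 75th percentile of all tested genes in 5 length classes. On the left the cilium genes follow the falling medians from 0.14 to -0.16, and on the right, with the trend on length and GC removed, both kinds of cilium gene have medians near 0.12.

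With that trend removed, the Dnah genes and the other cilium genes came together. The median log2 fold change was 0.13 for the 11 Dnah genes and 0.12 for the other 31, and 38 of 42 had a higher estimate, where 49.4% of all tested genes had one. The difference between the sets, Dnah genes minus the others, was 0.0027 in place of -0.25. The trend was fitted over all genes of a library, so its removal also takes out any genotype difference tied to length or GC. Such a difference cannot be told apart from the trend here. Both sets were then lowest in wildtype replicate 3, at -0.20 for the Dnah genes and -0.22 for the others, and the other 5 libraries ran from -0.024 to 0.14. Wildtype replicates 1 and 2 averaged near 0, and without wildtype replicate 3 the difference of all 42 between the genotypes was 0.060 in place of 0.13. No cilium gene was called on this scale, where 0.493% of all tested genes were, 0.152% as higher.

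**Figure D4:**
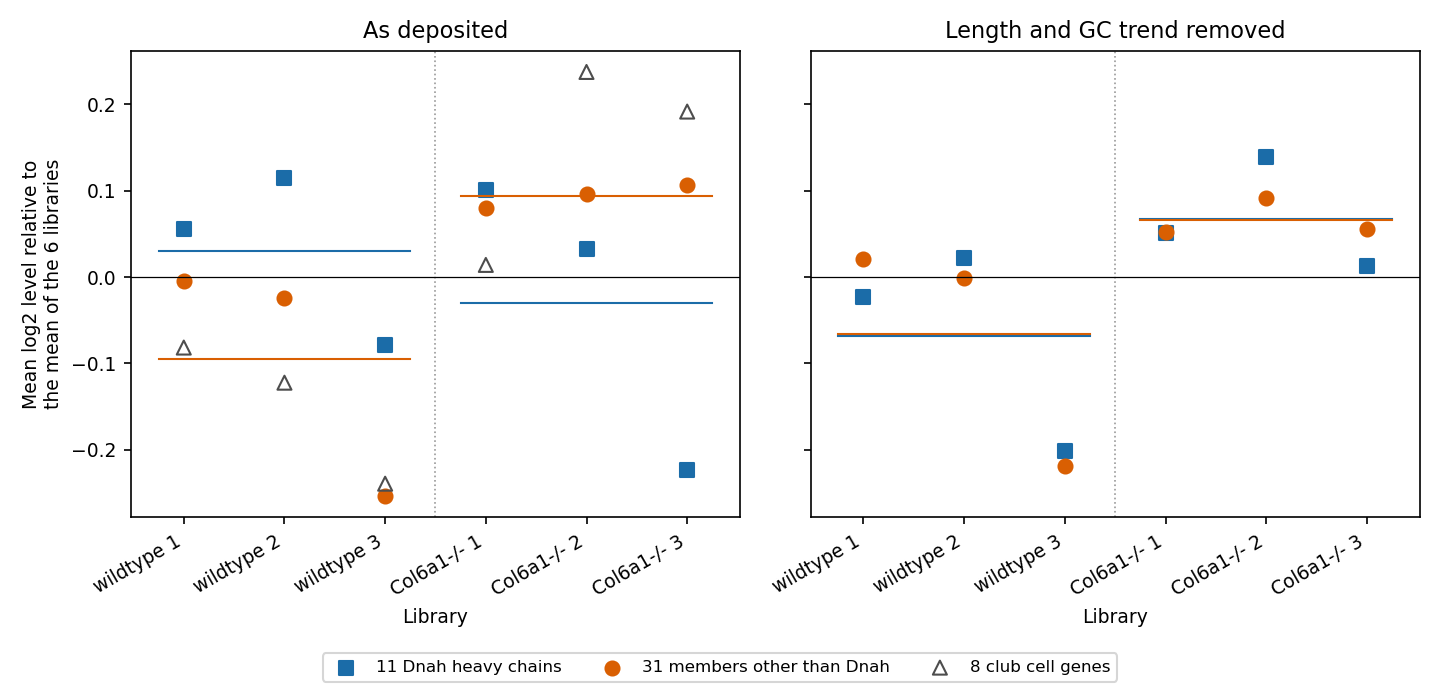
Mean log2 level of the 11 Dnah genes (squares) and the other 31 cilium genes (circles) in each library, relative to the mean of the 6 libraries, as deposited on the left, with 8 club cell genes as triangles, and with the length and GC trend removed on the right; lines are genotype means. On the left the sets part in Col6a1-/- replicate 3, at -0.22 and 0.11, and on the right they lie together with wildtype replicate 3 lowest.

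Estimates for club and basal cell markers of the airway were also above 0, and their part in the result was not tested. For all 8 club cell genes the estimate was higher (median 0.26 on the log2 scale, none called by limma). With the length and GC trend removed their median was 0.16. Their summed normalized counts were 615055 to 760117 in wildtype and 788988 to 992444 in Col6a1-/- libraries. Most of each sum was Scgb1a1 alone, at a mean of 538978 in wildtype and 708519 in Col6a1-/- libraries. The club cell secretoglobin gene Scgb3a2 had the smallest p of the 8, at a log2 fold change of 0.59 (SE 0.12, limma adjusted p 0.0809). It was the 1 club cell gene called in the authors' deposited table (adjusted p 0.000246). Of the 4 basal cell genes the 3 tested had higher estimates, at summed counts of 46.5 to 105 in wildtype and 92.3 to 148 in Col6a1-/- libraries. These sums are low and overlap between the genotypes. The cartilage genes of large airways summed to 5.81 to 10.98 in wildtype and 12.0 to 27.3 in Col6a1-/- libraries. Of these 4 genes only Col2a1 was tested, at a mean of 5.24 in wildtype and 12.9 in Col6a1-/- libraries. The sums thus rest on few counts near the floor. Goblet cell genes had 2 of 6 higher, a median of -0.31, and sums of 6041 to 12149.5 and 6829 to 9276. None of the markers of the club, goblet, basal and cartilage lists was at 0 in every library. Wildtype replicate 3 had the lowest sum in each of these 4 lists, as it had the lowest level of the cilium genes. It was also lowest for the summed alveolar type 1 genes (136023) and general epithelial genes (20257.7). For neuroendocrine and alveolar type 2 genes the lowest sum was that of Col6a1-/- replicate 1, at 202 and 777720. All 4 neuroendocrine genes had a higher estimate (median 0.22), and 5 of 6 alveolar type 2 genes a lower one (median -0.16). Of the alveolar type 1 genes 3 of 6 were higher (median 0.05), and of the general epithelial genes 2 of 4 (median 0.08).

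Other genes of the cilium pathway, 95 in 7 lists, were measured beside the 42. None of the 92 that were tested was called over all genes in the limma fit, which called 0.0652%. Of these, 61 had a higher estimate and the median log2 fold change was 0.05. Called in the authors' deposited table were 2 as higher and 1 as lower, where 1.87% of all genes with an adjusted p there were higher and 3.18% lower. The higher genes were Cfap69 and Enkur, both of the axoneme, at log2 fold changes of 0.48 and 0.45 (limma adjusted p 0.0939 and 0.108), and the lower gene was Dync1h1, the heavy chain of cytoplasmic dynein, at -0.39 (limma adjusted p 0.115). Cfap69 had 586, 624 and 731 normalized counts in wildtype and 936, 878 and 879.7 in Col6a1-/- libraries, without overlap.

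By list, 24 of 32 other spoke, regulatory and inner microtubule genes had a higher estimate, with a median of 0.09. Among 20 intraflagellar transport genes 15 did (median 0.06), and Ift74 had the smallest p (log2 fold change 0.49, SE 0.15, adjusted p 0.131). Of 12 regulators of multiciliogenesis 6 were higher, with a median of 0.06. Of these, E2f5 had the smallest p (log2 fold change 0.40, adjusted p 0.164). Mcidas, an early regulator of the multiciliated programme, had 63.3, 63.7 and 62.9 in wildtype and 67.4, 37.2 and 61.0 in Col6a1-/- libraries (adjusted p 0.599). The tested outer arm intermediate chains, light chains and docking genes had 6 of 8 higher (median 0.05), with Ccdc114 first by p at 0.18 (adjusted p 0.437). Among dynein preassembly factors 6 of 10 were higher (median 0.12), with Zmynd10 first at 0.32 (adjusted p 0.234). The other axonemal heavy chains had 2 of 3 higher, with Dnah8 first at -0.22 (adjusted p 0.393). In the cytoplasmic dynein list, a motor of the cell body, 2 of 7 were higher and the median was -0.05.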

How the data were processed

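The normalized counts were made by the authors, reads per gene divided by a size factor per library, per the name and values of the deposited table. Per the submitters' processing notes, the build was GRCm38.p5 and the tools were DESeq2 1.16.1, featureCounts, Subread 1.5.0p3, STAR 2.5.2b, Trimmomatic 0.36 and R 3.4.1, without roles. This deposited signal was whole reads over 1 size factor in 100% of values (tolerance 1e-06); Col6a1-/- replicate 3, at 1.0003, lies too close to 1 for the step to test this. The authors' deposited table also gave log2 fold changes, a mean and a statistic (each a score here), and p-values.

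Values of log2(normalized count + 1) were tested, two-sided, by limma-trend in R 4.3.3 with limma 3.58.1, adjusted after Benjamini-Hochberg over all 16879 tested genes, threshold 0.05. The log scale understates changes of low genes. Length and GC come from the longest transcript in GENCODE M21 (GRCm38), known for 97.4% of tested genes; the trend was fitted per library with natural splines of 5 degrees of freedom each. Alternatives included edgeR 4.0.16 and DESeq2 1.42.0 on recovered reads; scripts were tested on simulated data. Figures used Python 3.11.15. Members, lists and tests were chosen with earlier results of these data known. All 42 members enter the counts and medians, and not all are named. Fold changes and adjusted p go to the regulators, the dynein heavy chains and genes without overlap. They also go, per role, to the smallest p and the highest level per kilobase. Library counts are given for part of these genes. Hydin, Spag17, Ccdc39, Ccdc40 and other added names were chosen after their values were seen. Older symbols were matched for 5 list genes through RefSeq synonyms.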

Additional observations from a re-analysis of the deposited data

How the results depend on the processing

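The count of called cilium genes was 0 and stayed there in all settings except the following: 2 without a filter on low values, 5 with library quality weights, 3 with DESeq2 (and 3 on the genes of the main filter, an alternative chosen after seeing the data), and 0 to 3 when a library was left out. The count of called pathway genes outside the 42 was 0, and it was 7 with library quality weights, 3 with either DESeq2 fit and 0 to 3 when a library was left out, of 92 tested. These fits called 19.1%, 5.06% and 5.18% of all genes, and 8.18% without wildtype replicate 3. With the length and GC trend removed the Dnah median was 0.13 and Dnah minus others 0.0027; with the male share as a covariate the latter was -0.42 and the median of the other 31 was 0.36; quality weights gave that median as 0.093. Leaving out a library gave medians of 0.047 to 0.19 for all 42, 0.064 to 0.23 for the 31 and -0.18 to -0.034 for the Dnah genes, and a Dnah difference of -0.32 to -0.15. The lowest values for all 42 and for the 31, and the count of 3, came without wildtype replicate 3, and without Col6a1-/- replicate 2 the count was 1; the cause was not tested.

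Some estimates turned sign, that of Hydin from -0.25 to 0.014 with the length and GC trend removed. With the trend removed the others were 0.18 for Dnah1, 0.13 for Dnah10, 0.17 for Dnah2, 0.0057 for Dnah6, 0.10 for Dnah9, 0.11 for Rfx2, -0.07 for Ccdc39, 0.12 for Ccdc40 and 0.07 for Spag17. With the male share Dnah12 was -0.00016, Dnah7b -0.092 and Rfx2 0.16. Median centring, quantile normalization and quality weights gave Dnah7b -0.036, -0.066 and -0.062 and Drc1 -0.024, -0.017 and -0.076, and quality weights gave Foxj1 -0.021. Leave-one-out ranges were -0.19 to 0.017 for Dnah1, -0.047 to 0.096 for Dnah7b, -0.080 to 0.099 for Drc1, -0.040 to 0.14 for Foxj1 and -0.083 to 0.070 for Rfx2. With the replicate number as a block no cilium gene was called and the median was 0.15; the deviations of same-numbered libraries correlated at -0.14, 0.11 and -0.0059, so the numbers do not pair the pools. Each cilium gene had 118 reads or more per library. The spread between 3 pools limits these comparisons, and the part of it due to counting was not separated.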
